A study of Capra hircus with 9 samples.

Results

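The levels of 8 genes that mark the epithelium of the thymus were followed in the submandibular glands of Lubo goats of 3 ages. The genes were FOXN1, PAX1, DLL4, PSMB11, PRSS16, TBATA, AIRE and FEZF2. They were chosen by name, with earlier results of these data known. All 8 were among the 21227 genes to which the transcripts of the expression table were summed. Total RNA of tissue labelled as submandibular gland of female goats was sequenced, freed of ribosomal RNA. There were 9 libraries, 3 from goats aged 1 month, 3 from goats aged 12 months and 3 from goats aged 24 months. The labels name no allele or treatment, so that age was the only labelled difference, and nothing in them says that animals were paired across ages.

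The thymus is the organ in which T cells mature. Its outer cortex and inner medulla are built on different epithelial cells. FOXN1 is the transcription factor on which thymic epithelium depends, and PAX1 is a transcription factor of the pharyngeal pouches from which the thymus, and the parathyroid, arise. DLL4 is the ligand with which thymic epithelium signals to Notch1 on early thymocytes, and it is also made by endothelial cells. In the cortex, PSMB11 encodes a proteasome subunit found in cortical epithelial cells, PRSS16 encodes a serine protease of the same cells, and TBATA is a gene named for its expression in thymus, brain and testes. In the medulla, AIRE and FEZF2 encode regulators that let epithelial cells make proteins of other tissues, against which T cells are then tested. In young ruminants the thymus reaches into the neck. Levels are given in CPM, the expected counts of a gene scaled to a common library size that was scaled by the trimmed mean of M values (TMM).

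The 9 libraries held from 1.15e+07 to 2.49e+07 expected counts, and 3 counts corresponded to 0.149 to 0.196 CPM. The tissue label was checked with 11 salivary genes, whose summed level was 45936 to 76825 CPM in the 6 older libraries. It was 16084 CPM in 1-month replicate 1, 217 CPM in the library labelled 1-month replicate 2 and 8467 CPM in 1-month replicate 3. Outside the library labelled 1-month replicate 2, most of this sum was ZG16B, a secretory protein of salivary acini. In that library ZG16B stood at 9.35 CPM, against 13384 and 6824 CPM in the other 1-month libraries. AQP5 stood at 0.507 CPM there, against 224 and 132 CPM. Of the 11 genes only KRT19 was higher there, at 126 CPM against 91.5 and 90.1 CPM. That library therefore went against its tissue label in all of the listed salivary genes but KRT19. Its log2 CPM values correlated with those of replicates 1 and 3 at r = 0.812 and 0.803 across genes, while replicates 1 and 3 correlated at r = 0.940, and genes are not independent replicates. The 19 thymocyte genes, among them RAG1, RAG2, DNTT and the CD3 genes, summed to 5966, 22110 and 3183 CPM in 1-month replicates 1, 2 and 3 and to 396 to 881 CPM in the older libraries. The 3 parathyroid genes summed to 694 CPM in 1-month replicate 3 and to at most 0.942 CPM in any other library. The results are given below with and without the library labelled 1-month replicate 2, and the part that these other tissues' RNA had in them was not tested.

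The transcription factors of the thymic and pharyngeal epithelium were read in all 3 libraries of the youngest goats and were nearly lost from the older ones. FOXN1 had 16.2, 82.4 and 5.73 CPM in 1-month replicates 1, 2 and 3. It had 0.0423, 0.0565 and 0 CPM at 12 months and 0, 0 and 0.106 CPM at 24 months, which was at most 2 counts in any older library. All 1-month libraries thus lay above all older ones. FOXN1 fell with a log2 fold change of -9.60 (SE 1.51, n = 3 and 3, adjusted p = 0.0118, edgeR quasi-likelihood test) between 1 and 12 months and of -9.62 (SE 1.51, adjusted p = 0.00723) between 1 and 24 months. The pooled counts gave a ratio of 1162 (95% counting interval 279 to 8350) at 12 months and of 1078 (298 to 8910) at 24 months, intervals that cover counting error only.

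PAX1 was present at low level in every older library. It had 19.0, 79.7 and 17.2 CPM in the 1-month libraries, 0.469, 0.0565 and 0.541 CPM at 12 months and 0.0600, 0.175 and 0.794 CPM at 24 months. In counts the older libraries held between 1 and 15 for PAX1, and the groups of 1 month and of either older age did not overlap. PAX1 fell, with a log2 fold change of -6.71 (SE 1.03, adjusted p = 0.0114, edgeR) to 12 months and of -6.67 (SE 1.09, adjusted p = 0.00797) to 24 months, and the pooled ratios were 116 (74.0 to 193) and 120 (75.8 to 193).

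**Figure D1:**
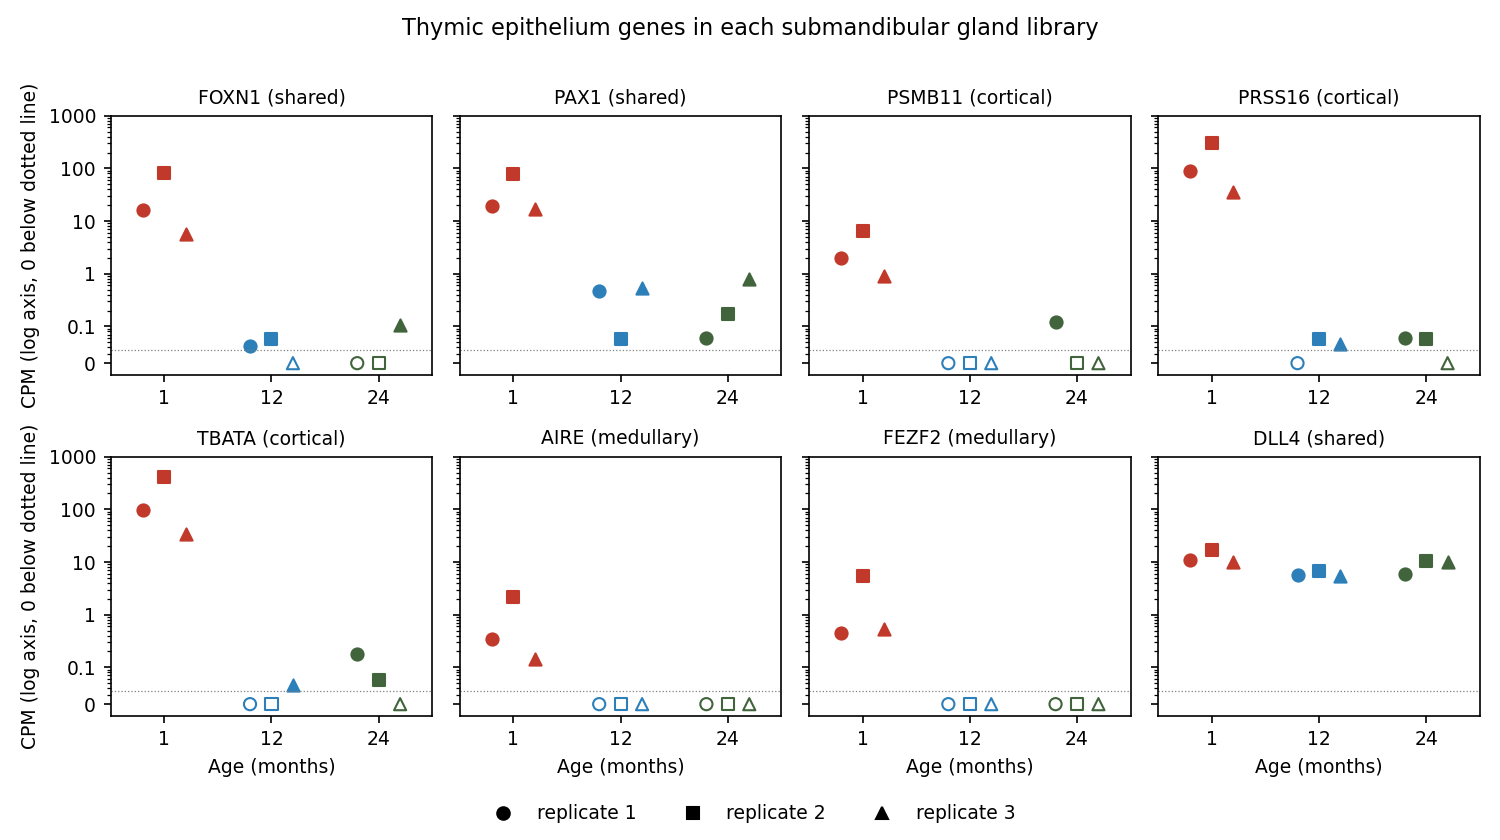
CPM (log axis) of the 8 genes against age in months, 1 point per library, with the replicate given by the shape of the point and libraries with no count drawn open below the dotted line. For 7 genes the 3 libraries at 1 month lie above the 6 older libraries, and for DLL4 the level at 24 months overlaps that at 1 month.

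The cortical genes showed the same order of libraries. PRSS16 had 88.3, 297 and 35.6 CPM at 1 month, 0, 0.0565 and 0.0452 CPM at 12 months and 0.0600, 0.0582 and 0 CPM at 24 months. TBATA had 96.9, 419 and 34.6 CPM at 1 month, 0, 0 and 0.0452 CPM at 12 months and 0.180, 0.0582 and 0 CPM at 24 months. For both genes no older library held more than 3.21 counts. PSMB11 was counted less, with 1.99, 6.34 and 0.888 CPM at 1 month. It had no count in the 3 libraries of 12 months and 0.120, 0 and 0 CPM at 24 months.

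All 3 cortical genes fell. Between 1 and 12 months the log2 fold change was -11.60 (SE 1.31, adjusted p = 0.00701) for PRSS16, -12.78 (SE 1.60, adjusted p = 0.00823) for TBATA and -8.74 (SE 1.59, adjusted p = 0.0271) for PSMB11, by the edgeR quasi-likelihood test. Between 1 and 24 months it was -11.63 (SE 1.25, adjusted p = 0.00269) for PRSS16, -11.14 (SE 1.42, adjusted p = 0.00399) for TBATA and -6.12 (SE 1.32, adjusted p = 0.019) for PSMB11. With so few counts left in the older groups the folds were imprecise. For PRSS16 the pooled ratio at 12 months was 4416 (1112 to 33200). At least 58.4-fold lower is what the 3 counts allowed over the 12-month group give for PSMB11, and its ratio at 24 months was 87.3 (25.4 to 777).

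The medullary genes had few counts even in the youngest goats. AIRE had 0.344, 2.21 and 0.143 CPM in 1-month replicates 1, 2 and 3, which was 5.30, 41.1 and 2.19 counts, and no count in any of the 6 older libraries. It did not pass the filter on low counts and so had no test by edgeR with that filter. Against a floor of 3 counts over the older group, AIRE was at least 17.5-fold lower at 12 months and at least 18.7-fold lower at 24 months. FEZF2 had 0.459, 5.54 and 0.544 CPM at 1 month and no count in any older library. Its fitted log2 fold change was -8.25 (SE 2.12, adjusted p = 0.0576, edgeR) at 12 months, which did not pass the threshold. At 24 months FEZF2 fell, with a log2 fold change of -8.26 (SE 1.98, adjusted p = 0.0354). By the floor FEZF2 was at least 42.7-fold lower at 12 months and at least 45.5-fold lower at 24 months. The 1-month library on which most of these counts rest was the one labelled replicate 2, which held 81.9% of the summed CPM of AIRE and 84.7% of that of FEZF2 at that age.

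DLL4 behaved apart from the other 7 genes. It had 11.1, 17.1 and 10.2 CPM at 1 month, 5.62, 6.81 and 5.32 CPM at 12 months and 6.003, 10.3 and 10.1 CPM at 24 months. The 1-month libraries lay above the 12-month ones and overlapped with the 24-month ones. The fitted log2 fold change was -1.07 (SE 0.352, adjusted p = 0.0751) to 12 months and -0.43 (SE 0.447, adjusted p = 0.536) to 24 months, neither of which passed the edgeR test. Between 12 and 24 months it was 0.62 (SE 0.325, adjusted p = 0.426). When libraries were scaled by their total expected counts, the change of DLL4 to 12 months was -1.49 (adjusted p = 0.0162), still within the fold threshold. Without the library labelled 1-month replicate 2 it was -0.84 (SE 0.228, adjusted p = 0.0269, edgeR) to 12 months, also within the fold threshold. To 24 months it was then -0.16 (adjusted p = 0.79).

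Because DLL4 is also an endothelial gene, it was set against 12 endothelial genes, a ratio chosen after its values were seen. DLL4 stood at 19.4, 41.7 and 13.7 counts per 1000 endothelial counts in the 1-month libraries, at 10.8, 19.1 and 14.7 at 12 months and at 16.5, 24.2 and 15.3 at 24 months. The groups overlapped (two-sided exact permutation p = 0.4 for 1 against 12 months and 0.7 for 1 against 24 months, where 3 libraries against 3 cannot go below 0.1). The highest value was again that of the library labelled 1-month replicate 2. Without that library the mean at 1 month was 16.6, against 14.9 at 12 months and 18.7 at 24 months. The endothelial genes themselves summed to 410 to 745 CPM at 1 month, 356 to 522 CPM at 12 months and 363 to 662 CPM at 24 months.

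In total 5 of the 8 genes were called lower at 12 months, with an adjusted p under 0.05 and a log2 fold change beyond 2 in size, against 9.36% of the 14620 genes tested, and 6 were called lower at 24 months, against 9.01% of 14694. Calls in either direction made up 11.5% and 13.2% of the genes tested, and calls of a higher level 2.12% and 4.23%. In each comparison 7 of the 8 passed the filter on low counts. They could pass it through the 1-month libraries alone, and the 8 genes were chosen with earlier results of these data known. All 8 genes had 1-month libraries entirely above the 12-month ones, against 26.8% of tested genes, and 7 had them above the 24-month ones, against 23.3%. The median log2 fold change of the 7 tested members was -8.74 and -8.26, and that of all genes tested was -0.02 and -0.01. Between 12 and 24 months 0.0% of 14075 genes were called by edgeR, although 1555 had an unadjusted p under 0.05 and DESeq2 called 10. Only DLL4 of the 8 passed the filter on low counts there, and the other 7 stood at 0 to 15 counts in every library of both ages. With no filter 6 members were tested, and in a fit of all 9 libraries 7, and none was called. In bulk tissue fewer cells of a type, less RNA per cell and a difference in the tissue sampled cannot be told apart.

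**Figure D2:**
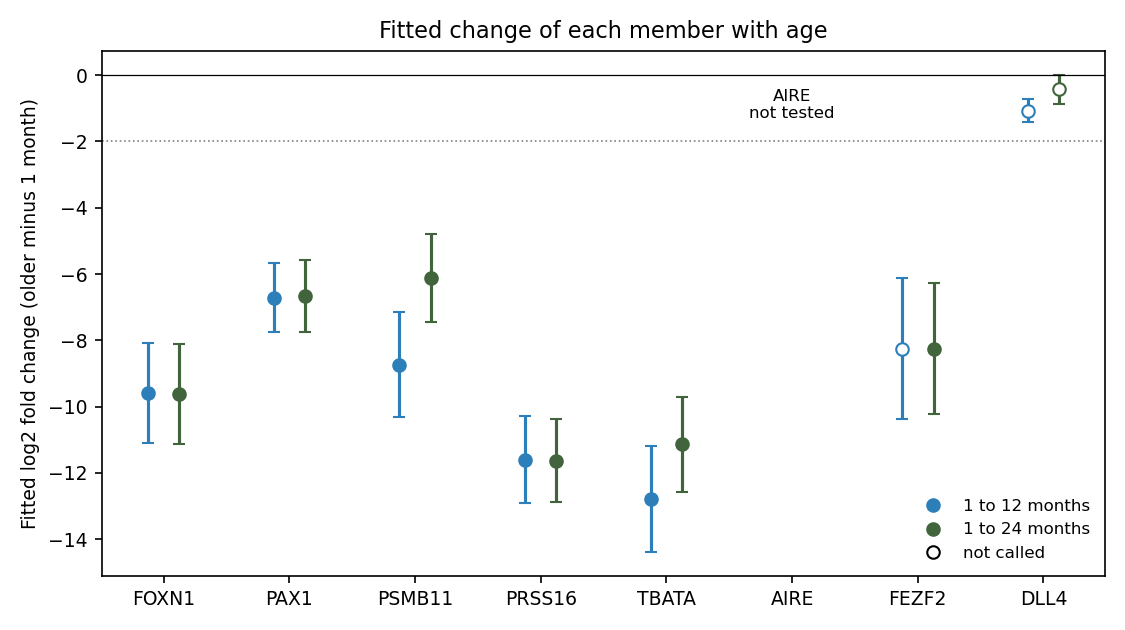
Fitted log2 fold change, older minus 1 month, of each gene in both comparisons, with bars of 1 SE, filled points for called genes and a dotted line at the fold threshold. The fitted values of 6 genes lie between -12.78 and -6.12, those of DLL4 at -1.07 and -0.43, and AIRE was not tested.

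The calls at 12 months depended on having 3 older libraries. Without any one of the 12-month replicates 1, 2 or 3, no member was called by edgeR (adjusted p of FOXN1 0.0622 to 0.072 and of PRSS16 0.0511 to 0.0548), although the fitted changes kept their direction, and without 24-month replicates 1, 2 and 3 in turn 5, 4 and 3 were called at 24 months. Calls over all genes fell too. With all libraries, 1678 of 14620 genes were called at 12 months and 1946 of 14694 at 24 months. Without 12-month replicates 1, 2 and 3 in turn, 0 of 15043, 67 of 15049 and 110 of 15074 genes were called. Without 24-month replicates 1, 2 and 3 in turn, 1341 of 15053, 546 of 15054 and 305 of 15033 were called. Without the library labelled 1-month replicate 2, 6 members were called in each comparison, with FOXN1 at -7.93 in both and FEZF2 called at 12 months (-6.06, SE 1.24, adjusted p = 0.0224). Over all genes, 1834 of 14944 were then called at 12 months and 2117 of 15075 at 24 months.

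Summed over the 8 genes, the level was 234, 909 and 105 CPM in 1-month replicates 1, 2 and 3, 6.13, 6.98 and 5.95 CPM at 12 months and 6.42, 10.6 and 11.0 CPM at 24 months. Most of the sum in the older libraries was DLL4. The mean difference of 1 month from 12 months was 410 CPM and from 24 months 407 CPM, each with an exact permutation p of 0.1, the smallest that 3 libraries against 3 allow. Between 12 and 24 months the exact p was 0.2.

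The youngest group was uneven. The library labelled replicate 2 held 79.0% of the FOXN1 level summed over the 1-month libraries, 68.8% of that of PSMB11, 70.6% of that of PRSS16, 76.1% of that of TBATA and 68.8% of that of PAX1. For DLL4 it held 44.6%. Thymocyte genes were divided in a like way, with 70.7% in replicate 2, while the same library held 0.9% of the salivary level and 23.8% of the endothelial level. Each member was higher in replicate 2 than in replicate 1 beyond counting error, by 5.09 times (95% interval 4.45 to 5.84) for FOXN1, 3.37 times (3.17 to 3.57) for PRSS16, 12.1 times (5.71 to 31.1) for FEZF2 and 1.55 times (1.28 to 1.88) for DLL4. Replicates 1 and 3 nevertheless held every member, with 30.6 and 13.6 counts of PSMB11 and 250 and 87.7 counts of FOXN1.

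**Figure D3:**
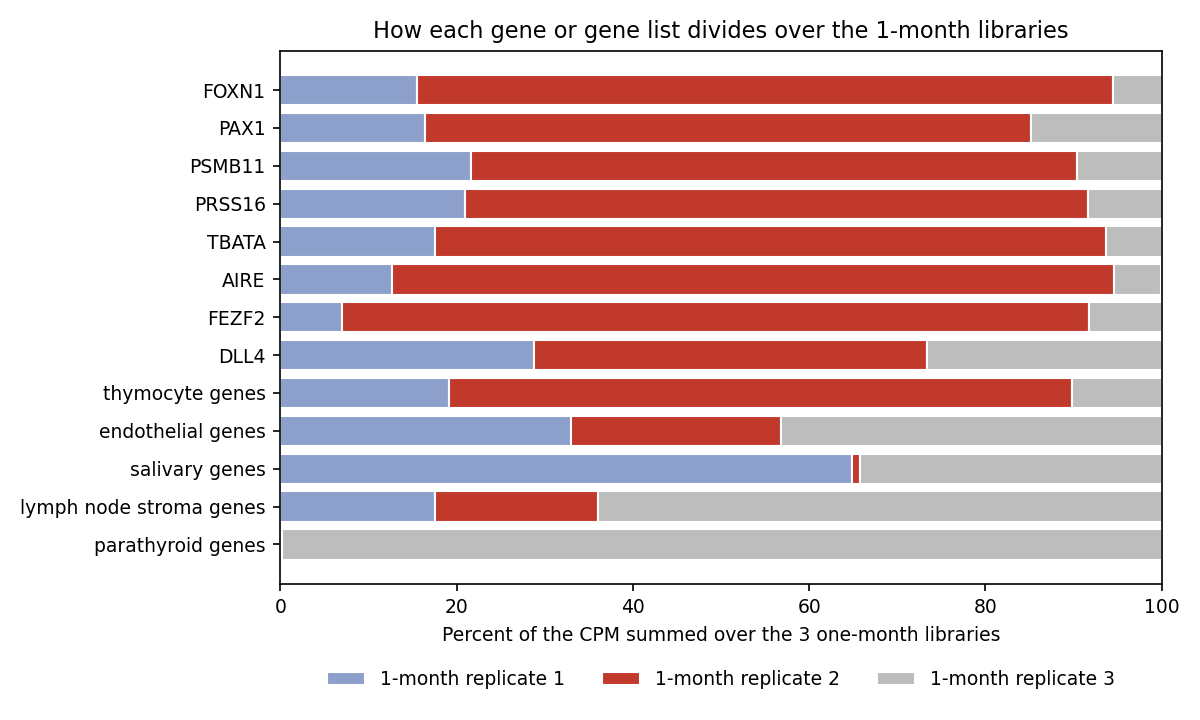
Percent of the CPM summed over the 3 one-month libraries that each library holds, for the 8 genes and for the summed genes of 5 other cell types or tissues. The library labelled replicate 2 holds 68.8% to 84.7% of 7 genes, 44.6% of DLL4, 70.7% of the thymocyte genes and 0.9% of the salivary genes, and replicate 3 holds 99.8% of the parathyroid genes.

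Relative to thymocyte genes the members other than DLL4 spanned a narrower range. FOXN1 stood at 2.72, 3.73 and 1.80 counts per 1000 thymocyte counts in 1-month replicates 1, 2 and 3, PRSS16 at 14.8, 13.4 and 11.2 and PSMB11 at 0.333, 0.287 and 0.279. PAX1 was highest in replicate 3, at 5.40 against 3.18 and 3.604. That library was also the one with the parathyroid genes, and the part of that tissue in the level of PAX1 was not tested. DLL4 was at 1.85, 0.774 and 3.20, in the reverse order of its CPM.

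Cortical and medullary genes were compared within libraries. The expected counts of PSMB11, PRSS16 and TBATA together exceeded those of AIRE and FEZF2 233 times in 1-month replicate 1, 93.2 times in replicate 2 and 104 times in replicate 3. No transcript lengths were at hand, so that the size of the ratio compares reads, not molecules, and only its differences among libraries can be read. The medullary genes made up 0.427% (exact 95% interval 0.214 to 0.722) of the 5 genes' counts in replicate 1, 1.06% (0.895 to 1.25) in replicate 2 and 0.957% (0.501 to 1.78) in replicate 3. The intervals of replicates 1 and 2 did not meet, and that of replicate 3 overlapped with both. This separation rested on FEZF2. Without it, AIRE alone made up 0.183% (0.0562 to 0.403) of the counts in replicate 1 and 0.305% (0.218 to 0.412) in replicate 2, and the intervals overlapped. Against PSMB11 alone, the medullary genes made up 28.8% (15.3 to 43.7), 55.0% (48.7 to 61.1) and 43.6% (25.6 to 67.2) of the counts, with FEZF2 in the sum, and the intervals of replicates 1 and 2 did not meet. In no older library did both sums pass 3 counts, so the balance of cortex and medulla could not be followed with age.

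**Figure D4:**
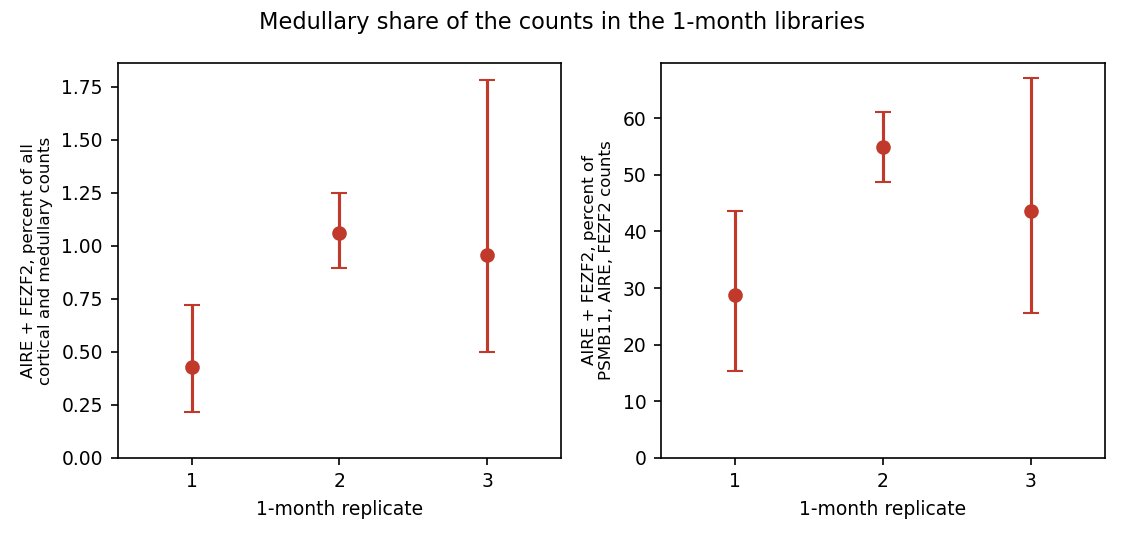
Percent of counts that AIRE and FEZF2 hold in each 1-month library, among the 5 cortical and medullary genes (left) and among PSMB11, AIRE and FEZF2 (right), with exact 95% intervals for counting error. Replicate 1 is lowest in both panels, at 0.427% and 28.8%, and replicate 2 is at 1.06% and 55.0%.

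Other genes of cortical epithelium moved less uniformly. Of 10 such genes, all tested at 12 months, 5 fell and none rose past the thresholds, with a median log2 fold change of -1.76. For this list and those below, 9.36% of all genes tested were called lower at 12 months and 9.01% at 24 months. CCL25, the chemokine that draws CCR9-bearing thymocytes, had 72.3, 336 and 28.8 CPM at 1 month and 0.826 to 2.57 CPM in the older libraries, and fell with a log2 fold change of -6.55 (SE 1.16, adjusted p = 0.0148) to 12 months and of -5.94 (SE 0.987, adjusted p = 0.00847) to 24 months. SLC46A2, a membrane transporter of thymic stroma, fell with log2 fold changes of -4.58 and -4.37. ENPEP, CD83 and LY75 also fell in both comparisons, with LY75, an endocytic receptor, at -2.04 and -2.19. CTSV, a lysosomal protease, had log2 fold changes of -0.35 (adjusted p = 0.565) and -0.28 (adjusted p = 0.671). KRT18, a keratin that glandular epithelium makes too, rose at 24 months (2.41, SE 0.476, adjusted p = 0.0146). Without the library labelled 1-month replicate 2, 4 of these genes were called at 12 months and 6 at 24 months.

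Of 16 other genes of medullary epithelium, 15 were tested, and 4 fell in each comparison. SPIB, a transcription factor, fell with log2 fold changes of -5.22 (SE 0.705, adjusted p = 0.00925) to 12 months and -5.40 (SE 0.679, adjusted p = 0.00392) to 24 months, from 7.88, 19.7 and 16.6 CPM at 1 month. CCL19, a chemokine that lymph node stroma also makes, fell at -5.06 and -3.94, and CD40, a receptor that medullary epithelium shares with B cells, fell at -3.54 and -3.39. CD80, a costimulatory ligand, fell at 12 months only past the thresholds (-2.68, adjusted p = 0.0203, against -1.87, adjusted p = 0.0795, at 24 months, a difference that was not tested), and TNFRSF11B, a decoy receptor for RANKL, fell at 24 months (-4.39, adjusted p = 0.0386). CLDN3, a tight junction protein that is abundant in glandular epithelium, rose at 24 months by a log2 fold change of 3.41 (adjusted p = 0.0335). KRT5, a basal keratin, was at -0.74 (adjusted p = 0.277) and -0.08 (adjusted p = 0.921). Lymph node stroma genes summed to 104, 108 and 377 CPM at 1 month and to 24.3 to 53.3 CPM in the older libraries, and 2 of 6 tested were called lower in each comparison. Without the library labelled 1-month replicate 2, 6 medullary genes were called at 12 months and 7 at 24 months.

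Among 7 tested pharyngeal pouch factors, 2 fell to 12 months and 3 to 24 months. HOXA3, needed for the thymus and parathyroid to form, had 2.49, 4.75 and 3.21 CPM at 1 month and at most 0.298 CPM later, and fell with log2 fold changes of -4.60 (SE 0.935, adjusted p = 0.021) and -5.77 (SE 0.942, adjusted p = 0.00797). It was more even over the 1-month libraries than FOXN1, with 45.5% of its level in replicate 2. EYA1, a transcriptional cofactor, fell at -2.14 and -2.56. TP63, the factor of stratified and basal epithelia, was at -0.26 (adjusted p = 0.602) and -0.77 (adjusted p = 0.241). Of 4 epithelial cytokines none was called at 12 months by edgeR, with 1 at an unadjusted p under 0.05 and 1 called by DESeq2. IL7, which sustains early T cells, fell at 24 months (-4.78, SE 1.23, adjusted p = 0.0329). Its level was 3.33, 0.906 and 2.81 CPM in 1-month replicates 1, 2 and 3, so that replicate 2 held 12.9% of it. In each comparison the fitted change was above 0 for 2 of the 4 cytokines, KITLG and WNT4, neither of which was called.

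The Notch pathway was read through 17 tested genes, of which 3 fell to 12 months and 4 to 24 months. Over all genes tested, 9.36% were called lower at 12 months and 9.01% at 24 months. No gene of the list was called higher, but 6 had a fitted change above 0 at 12 months and 8 at 24 months. PTCRA, the pre-T-cell receptor chain and a Notch1 target in thymocytes, fell with log2 fold changes of -8.12 (SE 1.49, adjusted p = 0.0159) and -9.07 (SE 1.39, adjusted p = 0.00712). It is also counted among the thymocyte genes. NOTCH3, a receptor, had 175, 879 and 123 CPM at 1 month and 24.2 to 52.1 CPM later, and fell at -3.71 and -3.36. MFNG, a glycosyltransferase that modifies Notch receptors, fell at -3.39 and -2.66, and IL2RA fell at 24 months (-2.73, adjusted p = 0.0214). NOTCH1, the receptor of DLL4 on thymocytes, was at -1.61 (adjusted p = 0.0898) and -1.09 (adjusted p = 0.245). HEY1, a Notch target in endothelium, was at 0.14 (adjusted p = 0.86) to 12 months, and RBPJ, the DNA-binding partner of all Notch receptors, at -0.07 (adjusted p = 0.91) to 24 months. HES1 was at 1.09 (adjusted p = 0.0436) and 0.97 (adjusted p = 0.124), and HEYL at 0.91 (adjusted p = 0.114) and 1.49 (adjusted p = 0.0421). Both genes lay within the fold threshold. Without the library labelled 1-month replicate 2, 3 of the Notch genes were called at 12 months and 2 at 24 months.

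**Figure D5:**
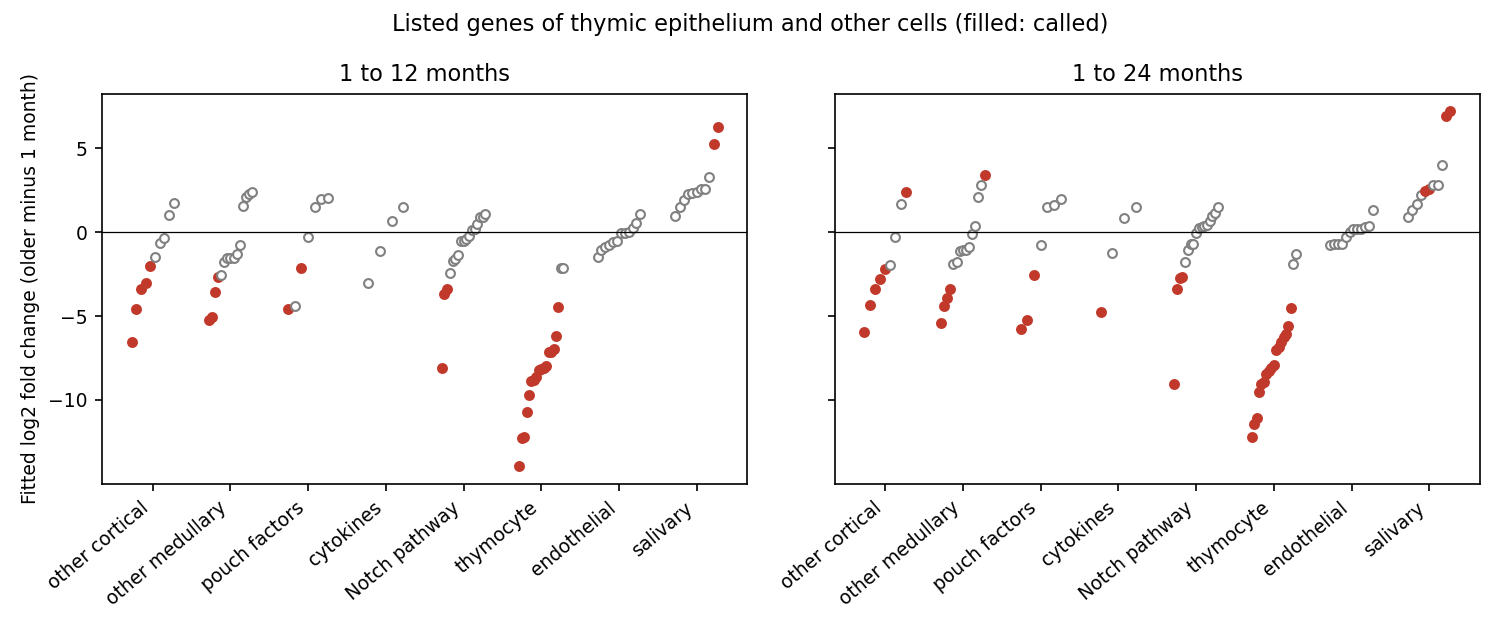
Fitted log2 fold change, older minus 1 month, of the listed genes by list, 1 point per gene tested, with called genes filled. In both panels 17 of 19 thymocyte genes are called lower, 5 of the other cortical and 4 of the other medullary genes are called lower in each, no endothelial gene is called, and the salivary genes called are higher.

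For comparison, 17 of 19 thymocyte genes fell in each comparison, and this count was 17 without the library labelled 1-month replicate 2. None of 12 endothelial genes was called by edgeR or by DESeq2 in either comparison, with 2 at an unadjusted p under 0.05 at 12 months and 0 at 24 months. Of 11 salivary genes 2 rose to 12 months and 4 to 24 months, among them LPO, the lactoperoxidase of saliva (6.25, adjusted p = 0.0159, and 7.22, adjusted p = 0.0104).

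The likeness of 2 genes was taken as the overlap of the percent of their level held by each of the 9 libraries, a description to which the library labelled 1-month replicate 2 contributed most. Among 14615 genes, those most like FOXN1 were LOC102186727 (98.6%), CCR9 (98.3%), CD4 (98.2%), PTCRA (98.1%) and SLIT1 (98.0%), where the median over all genes was 27.0%. Those most like PSMB11 were TG (98.2%), LOC102186014 (97.6%), PRSS16 (97.3%), CD8A (97.1%) and RAG1 (96.9%). Those most like AIRE were CD8B (98.6%), PTCRA (97.6%), CCR9 (97.4%), V-TCR (97.3%) and TCF7 (97.3%). Among the members FOXN1 overlapped with TBATA at 97.0% and with AIRE at 96.9%, and AIRE with FEZF2 at 94.3%. DLL4 overlapped with the other members at 36.0% to 48.3%, and the genes most like it were FAAP100 (95.3%), ZNF618 (95.2%), PRKCD (95.1%), EPG5 (94.8%) and BRD9 (94.8%), where the median over all genes was 74.8%.

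The genes next to the members in the RefSeq order of the goat genome were examined as well. Of 16 such neighbours 12 were tested at 12 months, with 4 called lower and 1 called higher. At 24 months 13 were tested, with 3 called lower and 1 called higher. Over all genes tested, 9.36% were called lower and 2.12% higher at 12 months, and 9.01% and 4.23% at 24 months. Whether position on the genome had a part in these changes was not tested. ADAMTS14, next to TBATA, fell with log2 fold changes of -7.05 (adjusted p = 0.0166) and -6.45 (adjusted p = 0.00797). DNMT3L, next to AIRE, fell at -9.14 (adjusted p = 0.0275) and -6.02 (adjusted p = 0.0155). A histone H2A gene, LOC102178027, next to PRSS16 and one of a family whose reads can be split among near-identical copies, fell at -7.44 (adjusted p = 0.0107) and -6.10 (adjusted p = 0.0125). CDH24, a cadherin gene next to PSMB11, fell to 12 months (-2.82, adjusted p = 0.0413) and was at -2.12 (adjusted p = 0.066) at 24 months. SLC13A2, next to FOXN1, rose with log2 fold changes of 3.20 (adjusted p = 0.0219) and 3.74 (adjusted p = 0.0112). PSMB5, the widely used proteasome subunit whose gene lies next to PSMB11, had log2 fold changes of 0.99 (adjusted p = 0.034) and 1.45 (adjusted p = 0.0274), opposite in sign to PSMB11 and within the fold threshold.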

How the data were processed

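Submandibular gland tissue of 9 female Lubo goats was sequenced by the study, 3 goats at each age. The authors aligned reads with TopHat2 2.1.1 and Bowtie2 2.2.8, per the submitters' processing notes, quantified transcripts with RSEM and deposited expected counts per transcript. The genome build was not given in the sources used here. The 52739 transcripts were summed to 21227 genes, with known transcripts named through RefSeq gene identifiers (assembly ARS1.2, used for names and gene order only, 42652 of 42686 identifiers matched) and 10053 new transcripts by the symbol deposited with them. A further 439 rows without a usable gene name, at most 6.01% of a library's counts, were left out. LY75 and KLK1 were found by product name.

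Gene counts were rounded and tested with the quasi-likelihood test of edgeR 4.0.16 (R 4.3.3) on the 6 libraries of each pair of ages, with TMM scaling and filterByExpr, and p-values were adjusted by Benjamini-Hochberg over all genes tested. Genes with an adjusted p under 0.05 and a log2 fold change over 2 in size were called. The study's further minimum on FPKM was not applied, as no FPKM values were at hand. The script was tested on simulated data. Ratios of pooled counts and shares carry exact 95% intervals, and a floor of 3 counts over a group was used where it had none. Each library came from its own goat, so the spread behind the p-values is that between libraries of different animals. At 1 month it also holds the differences in tissue content, with salivary genes at 16084, 217 and 8467 CPM in replicates 1, 2 and 3. Alternatives were DESeq2 1.42.0, other scalings, filters and designs, and each library left out in turn.

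The members and gene lists were chosen with earlier results of these data known. The genes named are the members, from each list the called genes by size (at most 6) and the least changed gene where needed, and the 5 genes most like FOXN1, PSMB11, AIRE and DLL4. HES1, HEYL, KITLG and WNT4 were named for fitted changes above 0. The DLL4 ratio to endothelial genes, the neighbours' values and the thyroid genes were chosen after values were seen. Some listed genes are not reported here by name. As replicate numbers the labels share across ages did not pair samples (correlations of deviations -0.187 to 0.342), the main test used no block.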

Additional observations from a re-analysis of the deposited data

How the results depend on the processing

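The members kept their direction under every alternative run for the 1 to 12 and 1 to 24 month comparisons. Members called numbered 3 at 12 months and 2 at 24 months when transcripts were tested in place of genes, and 0 to 6 at 12 months and 3 to 6 at 24 months with 1 library left out. In all, 829 of 30272 transcripts were called at 12 months and 453 of 30205 at 24 months. With 1 library left out, 0 to 1834 of all genes were called at 12 months and 305 to 2117 at 24 months. The other settings gave 4 to 7 members called at 12 months and 6 to 7 at 24 months, and DESeq2 called AIRE in both (log2 fold change -6.49, adjusted p = 0.00674, and -6.52, adjusted p = 0.00607). Those settings called 895 to 2436 of all genes at 12 months and 1775 to 2646 at 24 months. Listed genes called, 34 and 41, ranged from 0 to 40 and from 13 to 49 with 1 library left out, the lowest without 12-month replicate 1 and 24-month replicate 3. With the replicate number as a block 4 members were called at 12 months, where PSMB11 lost its call (adjusted p = 0.0523), and 6 at 24 months. The summed member level exceeded that of 12 months by 163 to 565 CPM and that of 24 months by 160 to 562 CPM with 1 library left out, and the difference of 12 from 24 months was -4.45 to -2.15 CPM. The cortical to medullary ratio in 1-month replicates 1, 2 and 3 was 123, 54.8 and 51.7 without PRSS16 and 113, 39.2 and 53.2 without TBATA, 545 and 327 in replicates 1 and 2 without FEZF2, and 408, 130 and 131 in replicates 1, 2 and 3 without AIRE. In replicate 3 too few counts were left without FEZF2, and a ratio per length was not run because no lengths were at hand. Signs changed for 3 genes near 0, HEY1 at 12 months (-0.36 with total-count scaling, -0.15 to 0.63 with 1 library left out), KRT5 at 24 months (0.11 with the block, -0.36 to 0.58 with 1 left out) and RBPJ at 24 months (-0.32 to 0.13). With total-count scaling 3 of the 5 genes most like DLL4 were kept. Total-count scaling moved the median log2 fold change of all genes to -0.48 at 12 months and -0.68 at 24 months. Among single genes and lists 1117 values were marked as the same, 242 as weaker, 27 as stronger and 8 as reversed in sign. The mark of the same let a count of calls change somewhat, as where 5 members called at 12 months became 4 or 7. The cause of these changes was not tested. Depth limited AIRE and FEZF2 most, with 2.19 to 8.33 counts in 1-month replicates 1 and 3.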

Other observations

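TG, the gene of thyroglobulin and one of 14 genes listed as proteins of other tissues, had the profile most like that of PSMB11. It had 22.1, 66.5 and 8.94 CPM in 1-month replicates 1, 2 and 3 and 0 to 0.361 CPM in the older libraries, and fell with a log2 fold change of -7.68 (SE 1.28, adjusted p = 0.0134, edgeR) to 12 months and of -8.09 (SE 1.02, adjusted p = 0.00392) to 24 months. A pair of other thyroid genes, chosen after this was seen, did not share the profile. NKX2-1, a thyroid transcription factor, had no count in any of the 9 libraries, and TSHR, the thyrotropin receptor, had at most 2.95 counts in any library.

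FOXN1 was divided over 11 transcripts, 3 of which had no count in any library. The split by RSEM among such alike transcripts is uncertain. In 1-month replicates 1, 2 and 3 the transcript XM_018064299.1 was given 45.4%, 19.5% and 49.1% of the gene's counts. A second one, XM_018064300.1, was given 24.9% in the library labelled replicate 2, which was 381 counts, and none in the others. For TBATA a transcript that the study assembled, TCONS_00075841, was given 83.1%, 92.0% and 87.7%.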
